A study of Bos taurus with 34 samples.

Results

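Chemokine ligands are small secreted proteins that guide leukocytes through tissue by binding receptors on their surface. The genes examined were those whose symbol is CCL or CXCL followed by a number, together with CX3CL1, XCL1 and XCL2. The RefSeq gene table held 34 such symbols and all 34 had a row in the deposited count table, out of 21554 genes with a row. For CXCL2 and CXCL12, which had several transcript rows, the row with the highest mean count stood for the gene. RNA was measured by sequencing in 34 libraries from 5 nulliparous Holstein heifers, numbered 10872, 10882, 11033, 11070 and 11110, all with synchronised oestrous cycles and all slaughtered on day 2 after ovulation. The 7 groups were the ampulla (a segment of the oviduct, whose lining is the endosalpinx), the upper horn and the mid horn of the uterus, each on the side of ovulation (ipsilateral) and on the opposite side (contralateral), and the uterine body. All 5 heifers contributed to every group but 1, the ipsilateral upper horn, which held 4 because the library of heifer 11110 was not analysed here. The horns and the body are lined by endometrium. No unsynchronised animal and no other day was included, so the values describe these sites on this day only.

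Chemokines are named after the spacing of their first cysteines, as CC, CXC, CX3C or XC ligands. CXC ligands with an ELR motif act on neutrophils through CXCR1 and CXCR2, the interferon-inducible CXC ligands draw activated T cells and natural killer cells through CXCR3, and most inflammatory CC ligands draw monocytes, eosinophils or T cells. A homeostatic group, among them CCL19, CCL21 and CXCL13, directs lymphocytes within lymphoid tissue. In the female tract, chemokines take part in the traffic of leukocytes through the endometrium and in the response to semen and infection.

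Library totals ran from 11619486 to 30412782 counts, with a median of 20610132. Levels are given as CPM, counts scaled to a common library total, and compared between libraries for 1 gene, never between genes, because the table counts transcripts and corrects for no length. The labelled sites were checked against marker genes. Summed markers of the oviduct, such as OVGP1, reached 1146 to 4378 CPM in the 10 ampulla libraries, against 0.889 to 82.5 CPM in 23 of the 24 endometrial ones. The exception was the contralateral mid horn of heifer 10882, with 1271 CPM. Stromal markers summed to 44.1 to 134 CPM in the ampulla, against 37919 to 86863 CPM in the endometrium, so the ampulla libraries held little RNA of these markers. Leukocyte markers summed to 30.1 to 64.0 CPM in the ampulla, against 119 to 376 CPM in the endometrium, and PTPRC, CD68 and CD163 had 0 counts in all ampulla libraries.

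Between the ampulla and the endometrium, most chemokine ligand transcripts were lower in the ampulla, and a few were much higher there. Of the 34 genes, 30 had enough counts to be tested. Among these 30, 24 differed at an adjusted p under 0.05, 3 of them higher and 21 lower in the ampulla (edgeR quasi-likelihood test, Benjamini-Hochberg adjustment over 17241 features). The background was high, since 64.9% of all features differed, 29.4% higher and 35.6% lower. The median log2 fold change was -2.10 over the 30 ligands and -0.18 over all features. Of the 24 ligands, 22 differed in the same direction in 5 of 5 heifers, and the share of all features that did so was not counted. In 4 of them, CCL14, CCL16, CXCL12 and CXCL17, no ampulla library overlapped any endometrial one, beside 11.7% of all features that were called with no such overlap. Of 12 tested leukocyte markers, 10 were also lower in the ampulla and 1 higher (median log2 fold change -2.09), and all 10 tested stromal markers were lower (median -8.62). In bulk tissue, fewer cells of a type and less RNA per cell cannot be told apart, and the part of these cell types in the ligand differences was not tested.

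**Figure D1:**
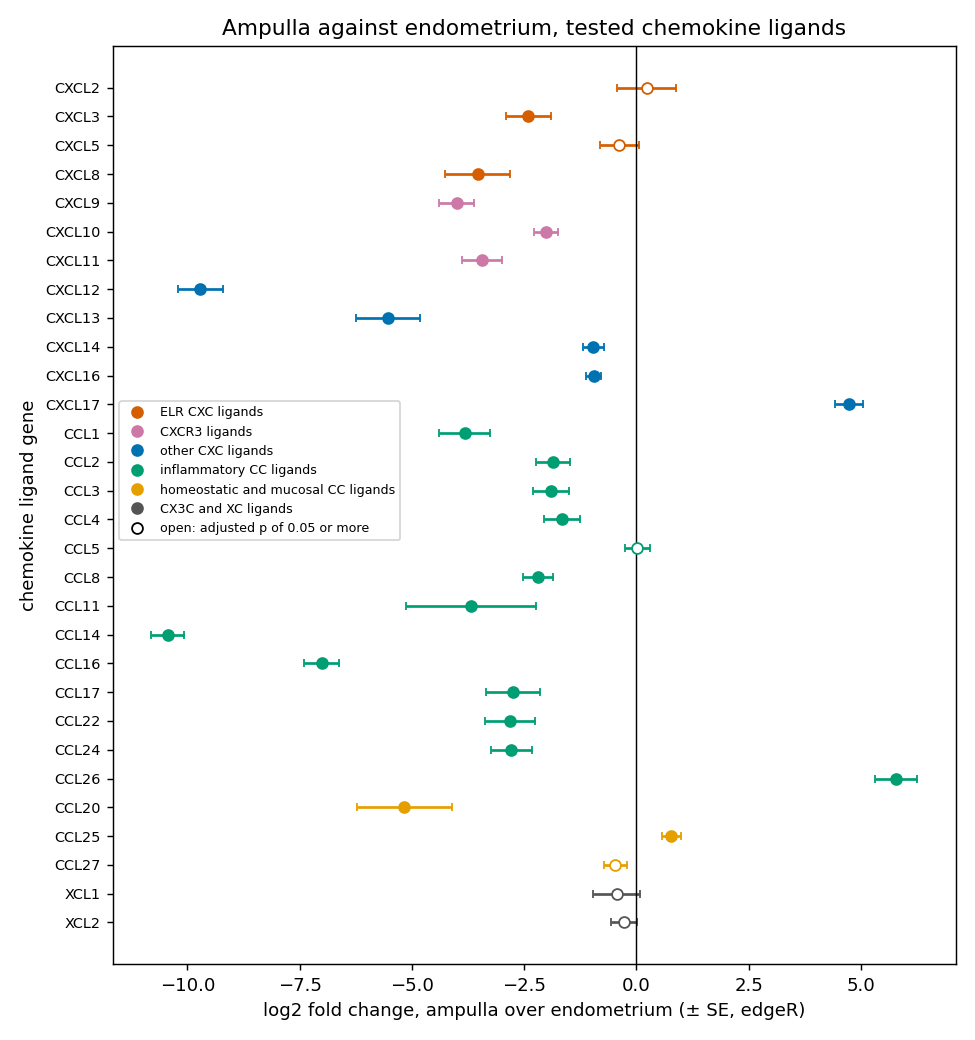
Log2 fold change of ampulla over endometrium for the 30 tested chemokine ligands, as points with SE bars from edgeR over 34 libraries, coloured by role, with open points where the adjusted p was 0.05 or more. CCL26 and CXCL17 lie far to the right at 5.79 and 4.74, and 21 filled points lie left of 0.

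The clearest ampulla transcript was CXCL17 (row NM_001083799.2), which codes for a mucosal chemokine of epithelia. Its CPM in heifers 10872, 10882, 11033, 11070 and 11110 was 21.4, 20.1, 23.5, 12.4 and 60.6 in the ipsilateral ampulla and 21.2, 31.3, 24.0, 37.3 and 58.7 in the contralateral ampulla. In the 24 endometrial libraries it ranged from 0.117 to 6.18 CPM, with a median of 1.14. The lowest ampulla library therefore stood above the highest endometrial one. Means over heifers were 31.0 ± 16.1 CPM in the ampulla, against 1.30 ± 0.65 CPM in the endometrium (SD, n = 5), a log2 fold change of 4.74 ± 0.31 (SE, edgeR adjusted p = 2.1e-14). Heifer 11110 was the highest on both sides of the ampulla, although not in the endometrium.

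CCL26 (row NM_001205635.1), an eosinophil attractant that binds CCR3, followed the same regional pattern with more scatter between sides. It had 32.6, 31.5, 33.9, 11.2 and 17.0 CPM in the ipsilateral ampulla and 6.01, 42.6, 9.24, 48.0 and 16.8 CPM in the contralateral ampulla, in the heifer order above. Endometrial libraries ran from 0.0556 to 9.80 CPM around a median of 0.358. Only the contralateral mid horn of heifer 10882, at 9.80 CPM, reached into the ampulla range. The means were 24.9 ± 8.32 CPM in the ampulla, against 0.727 ± 0.661 CPM in the endometrium (SD, n = 5), and the log2 fold change was 5.79 ± 0.47 (edgeR adjusted p = 3.2e-12). That mid horn library had the highest endometrial CCL26 and CXCL17 and also the highest endometrial oviduct marker sum. Without it the log2 fold changes were 6.10 for CCL26 and 4.81 for CXCL17, a check added after the data were seen.

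CCL24, the neighbour of CCL26 in the RefSeq gene order and another ligand of CCR3, went the opposite way. It averaged 0.158 ± 0.141 CPM in the ampulla, against 0.705 ± 0.253 CPM in the endometrium (SD, n = 5), with a log2 fold change of -2.79 ± 0.45 (edgeR adjusted p = 3.1e-06). The third ligand higher in the ampulla was CCL25, known for drawing lymphocytes to the gut and thymus through CCR9, and its difference was small. It had 3.18 ± 1.03 CPM in the ampulla, against 1.95 ± 0.57 CPM in the endometrium (SD, n = 5), a log2 fold change of 0.78 ± 0.21 (edgeR adjusted p = 0.0021), with the ampulla higher in 4 of 5 heifers. The ranges of CCL25 overlapped widely, from 1.63 to 7.02 CPM in the ampulla and from 0.863 to 7.72 CPM in the endometrium. CCL28, a mucosal ligand of CCR10, was represented by 1 noncoding transcript row with too few counts to be tested. That row had 37 counts spread over all 10 ampulla libraries and 11 counts in the endometrial ones, and no ampulla library (0.103 to 0.393 CPM) overlapped an endometrial one (0 to 0.10 CPM).

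**Figure D2:**
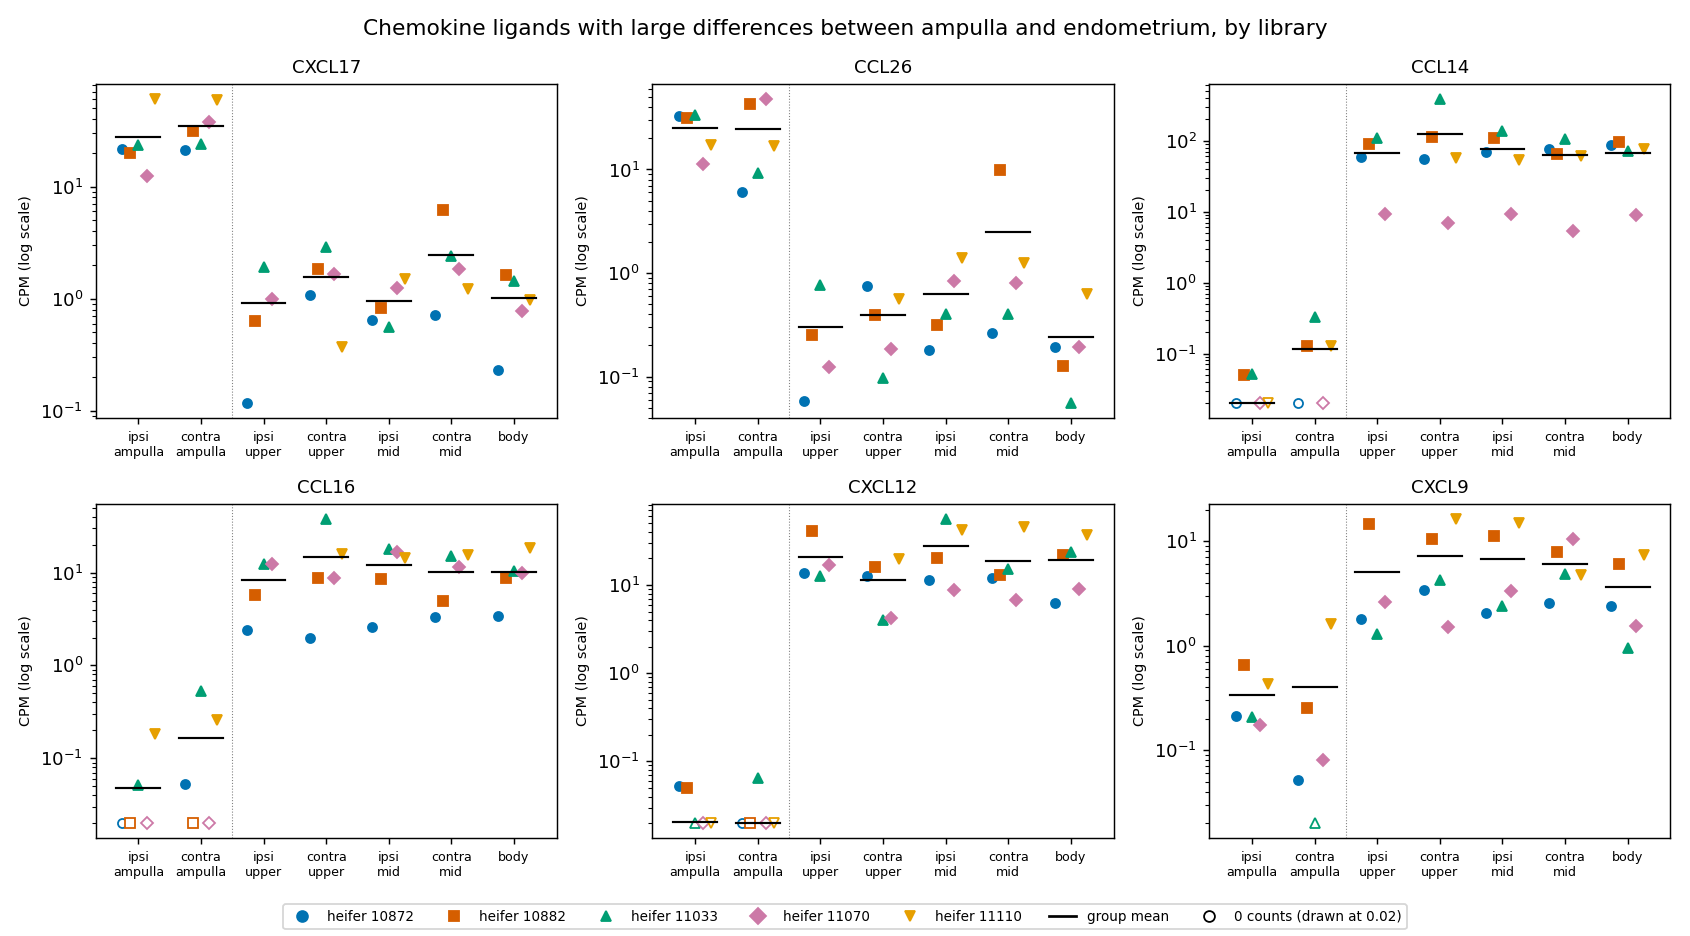
CPM on a log axis of CXCL17, CCL26, CCL14, CCL16, CXCL12 and CXCL9 in each library, 1 symbol per heifer, over the 7 groups, with ampulla groups at the left, bars at the group means and open symbols at 0.02 for 0 counts. CXCL17 and CCL26 stand high in the ampulla, and the other 4 genes are near or at 0 there and well above it in most endometrial libraries.

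Among the ligands lower in the ampulla, CCL14 (row NM_001046585.1) had the smallest adjusted p. CCL14 codes for a constitutively secreted CC chemokine that in humans activates monocytes through CCR1 and is bound by the scavenging receptor ACKR2. It had 11 counts in all 10 ampulla libraries together, where 5 of the 10 were at 0 CPM and the highest was at 0.327. In the endometrium it ranged from 5.29 to 389 CPM around a median of 71.0, with 37508 counts. The log2 fold change was -10.44 ± 0.37 (edgeR adjusted p = 2.8e-21), and the means were 0.069 CPM in the ampulla, against 77.2 ± 50.6 CPM in the endometrium (SD, n = 5). Endometrial CCL14 also split the heifers. Heifer 11070 had 9.34 and 6.96 CPM in its ipsilateral and contralateral upper horn, 9.35 and 5.29 CPM in its mid horn and 9.0 CPM in its body. All 19 endometrial libraries of the other 4 heifers lay at or above 53.4 CPM, so this heifer was separated from the rest at every uterine site.

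The next gene in the RefSeq order, CCL16, codes for a CC ligand produced mainly by the liver in humans. It reached at most 0.524 CPM in the ampulla, against 1.96 to 37.9 CPM in the endometrium with a median of 10.1, and the log2 fold change was -7.01 ± 0.39 (edgeR adjusted p = 3.8e-16), or -7.69 without heifer 11110. Its low heifer was another one. Heifer 10872 had 1.96 to 3.37 CPM in its 5 endometrial libraries, and the other 19 had 4.92 CPM or more, including those of heifer 11070. CCL5, which follows CCL16 in that order and draws T cells, did not pass the test. It had 13.8 ± 8.13 CPM in the ampulla, against 13 ± 4.45 CPM in the endometrium (SD, n = 5), and its log2 fold change of 0.02 ± 0.28 had an edgeR adjusted p of 0.953.

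CXCL12, which retains CXCR4-bearing cells in stroma and is made chiefly by fibroblasts, was nearly absent from the ampulla. Its main row (NM_001113174.1) had 3 counts over 10 ampulla libraries and 10071 counts over the 24 endometrial ones, where it ranged from 3.96 to 56.1 CPM. Relative to the library totals, the endometrial level was 1139 times the ampulla level, with an exact counting interval of 390 to 5524. Its other rows gave ratios of 528 (181 to 2558), on 3 ampulla counts, and 1343 (241 to 53027), on 1 ampulla count. All 3 rows thus went the same way. The remaining CXC ligands outside the ELR and CXCR3 groups were also lower in the ampulla, CXCL17 apart. CXCL13, the B cell attractant of lymphoid follicles, had 4 ampulla counts and 0.0501 to 4.78 CPM in the endometrium, with a log2 fold change of -5.53 ± 0.71 (edgeR adjusted p = 4.6e-08). It was -7.09 without heifer 10872 and -6.26 without heifer 11110.

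CXCL14 and CXCL16 had counts in every library. CXCL14, an epithelial chemokine of barrier tissues, ran from 10.3 to 24.1 CPM in the ampulla and from 7.67 to 95.6 CPM in the endometrium. Its means were 16.6 ± 3.26 CPM in the ampulla, against 37.6 ± 20.5 CPM in the endometrium (SD, n = 5), with a log2 fold change of -0.96 ± 0.24 (edgeR adjusted p = 0.00071), and the ampulla was lower in 4 of 5 heifers. CXCL16, a membrane-bound ligand of CXCR6 and a scavenger of oxidised lipoprotein, had 52.3 ± 9.69 CPM in the ampulla, against 103 ± 26.4 CPM in the endometrium (SD, n = 5). Its log2 fold change was -0.94 ± 0.17 (edgeR adjusted p = 1.1e-05), with 5 of 5 heifers lower. Both overlapped between the regions, and the spread of CXCL14 was several times wider in the endometrium than in the ampulla.

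All 3 interferon-inducible CXCR3 ligands fell in the ampulla. CXCL9 had 0.210, 0.650, 0.207, 0.173 and 0.431 CPM in the ipsilateral ampulla and 0.0522, 0.253, 0, 0.0798 and 1.62 CPM in the contralateral ampulla, in the heifer order above. The endometrial libraries ran from 0.945 to 16.3 CPM with a median of 3.83. The ranges met at 1 ampulla library, the contralateral one of heifer 11110. The log2 fold change of CXCL9 was -4.0 ± 0.40 (edgeR adjusted p = 2.1e-10), and -4.61 without heifer 11110. CXCL10 had 4.97 ± 3.02 CPM in the ampulla, against 19.8 ± 11.3 CPM in the endometrium (SD, n = 5), with a log2 fold change of -2.01 ± 0.27 (edgeR adjusted p = 1.2e-07). CXCL11, with a range of 0 to 0.517 CPM in the ampulla and 0.234 to 3.86 CPM in the endometrium, fell by 3.44 ± 0.45 on the log2 scale (edgeR adjusted p = 5.9e-08). In the endometrium CXCL9 and CXCL10 were highest, by heifer mean, in heifers 11110 (11.2 and 38.9 CPM) and 10882 (9.34 and 20.2 CPM). Other interferon-stimulated genes moved both ways. Of 11 tested members of a list with ISG15 and MX1, 5 were higher and 2 lower in the ampulla, and the list summed to 96.4 to 772 CPM in the ampulla, against 104 to 440 CPM in the endometrium.

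Of the 4 ELR CXC ligands, CXCL3 and CXCL8 were lower in the ampulla, and CXCL2 and CXCL5 did not pass the test. CXCL3 (row NM_001046513.2) had 1.26, 3.50, 2.12, 10.8 and 2.40 CPM in the ipsilateral ampulla and 2.77, 1.96, 6.75, 7.58 and 5.10 CPM in the contralateral ampulla. In the endometrium it ranged from 4.25 to 646 CPM with a median of 17.6. Its log2 fold change was -2.40 ± 0.50 (edgeR adjusted p = 0.00017), or -3.15 without the heifer as a block, and the ampulla was lower in 5 of 5 heifers. CXCL8, the main neutrophil attractant in cattle and humans, had 0 to 0.393 CPM in the ampulla and 0.0556 to 94.8 CPM in the endometrium. It fell by 3.54 ± 0.72 on the log2 scale (edgeR adjusted p = 8.1e-05), and fell by 2.38 without heifer 10882 and fell by 4.30 without heifer 11033. CXCL2 had a log2 fold change of 0.23 ± 0.65 (edgeR adjusted p = 0.775) although its mean was lower in the ampulla, at 0.695 ± 0.382 CPM against 3.65 ± 7.33 CPM in the endometrium (SD, n = 5). CXCL5 had -0.37 ± 0.44 (edgeR adjusted p = 0.461), with 5.50 ± 3.21 CPM in the ampulla, against 11.4 ± 13.5 CPM in the endometrium (SD, n = 5). CXCL2 and CXCL3 lie side by side in the RefSeq order next to GRO1 and are close paralogs, so reads may have been split between them. XCL1 and XCL2, and CCL3 and CCL4, carry the same doubt.

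The large SDs of this group came from 1 heifer. CXCL3 in heifer 10882 had 646 CPM in the contralateral mid horn, 147 CPM in the ipsilateral upper horn and 122 CPM in the body, against 4.25 to 59.9 CPM in the 19 endometrial libraries of the other heifers. CXCL8 in the same 3 libraries had 94.8, 12.4 and 24.3 CPM, against 0.0556 to 4.40 CPM in the other heifers. CXCL2 had 76.8 CPM in that mid horn and 10.3 CPM in that body, against 0.0772 to 1.42 CPM in the other heifers. The heifer's other uterine libraries lay within the range of the other heifers for CXCL3, at 14.7 CPM in the contralateral upper horn and 33.5 CPM in the ipsilateral mid horn. For CXCL8 the contralateral upper horn was also within that range, at 1.83 CPM, and the ipsilateral mid horn was above it, at 8.04 CPM. Neither side of its ampulla shared the pattern, since CXCL8 was at 0.10 and 0.127 CPM there. Over the uterine sites, the mean of heifer 10882 was 30.4 times that of the next heifer for CXCL2, 16.4 times for CCL20, 12.8 times for CXCL8, 6.13 times for CXCL3 and 5.62 times for CXCL5.

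CCL20, which draws CCR6-bearing dendritic cells and lymphocytes to mucosa, joined that group through a single library. It had 40.9 CPM in the contralateral mid horn of heifer 10882, and 0 to 2.89 CPM in the other 23 endometrial libraries. It had 3 counts over the ampulla, and the endometrial level was 105 times as high (exact counting interval 36.0 to 510). That mid horn library held 948 of the 1172 endometrial counts, and without it the ratio was 25.3 (8.64 to 122), a check added after the data were seen. The regional test of CCL20 gave a log2 fold change of -5.17 ± 1.06 (edgeR adjusted p = 9.6e-05), or -4.30 without that mid horn library. The neutrophil markers that had a row were at or near 0 in every library, but S100A8, S100A9 and CSF3R had no row. The number of neutrophils could therefore not be judged from this list. S100A12, MPO and ELANE, the 3 of the 6 listed markers with a row, summed to 0 to 0.851 CPM in all libraries, and the neutrophil receptors CXCR1 and CXCR2 had 0 counts in the ampulla and 6 counts each in the endometrium.

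**Figure D3:**
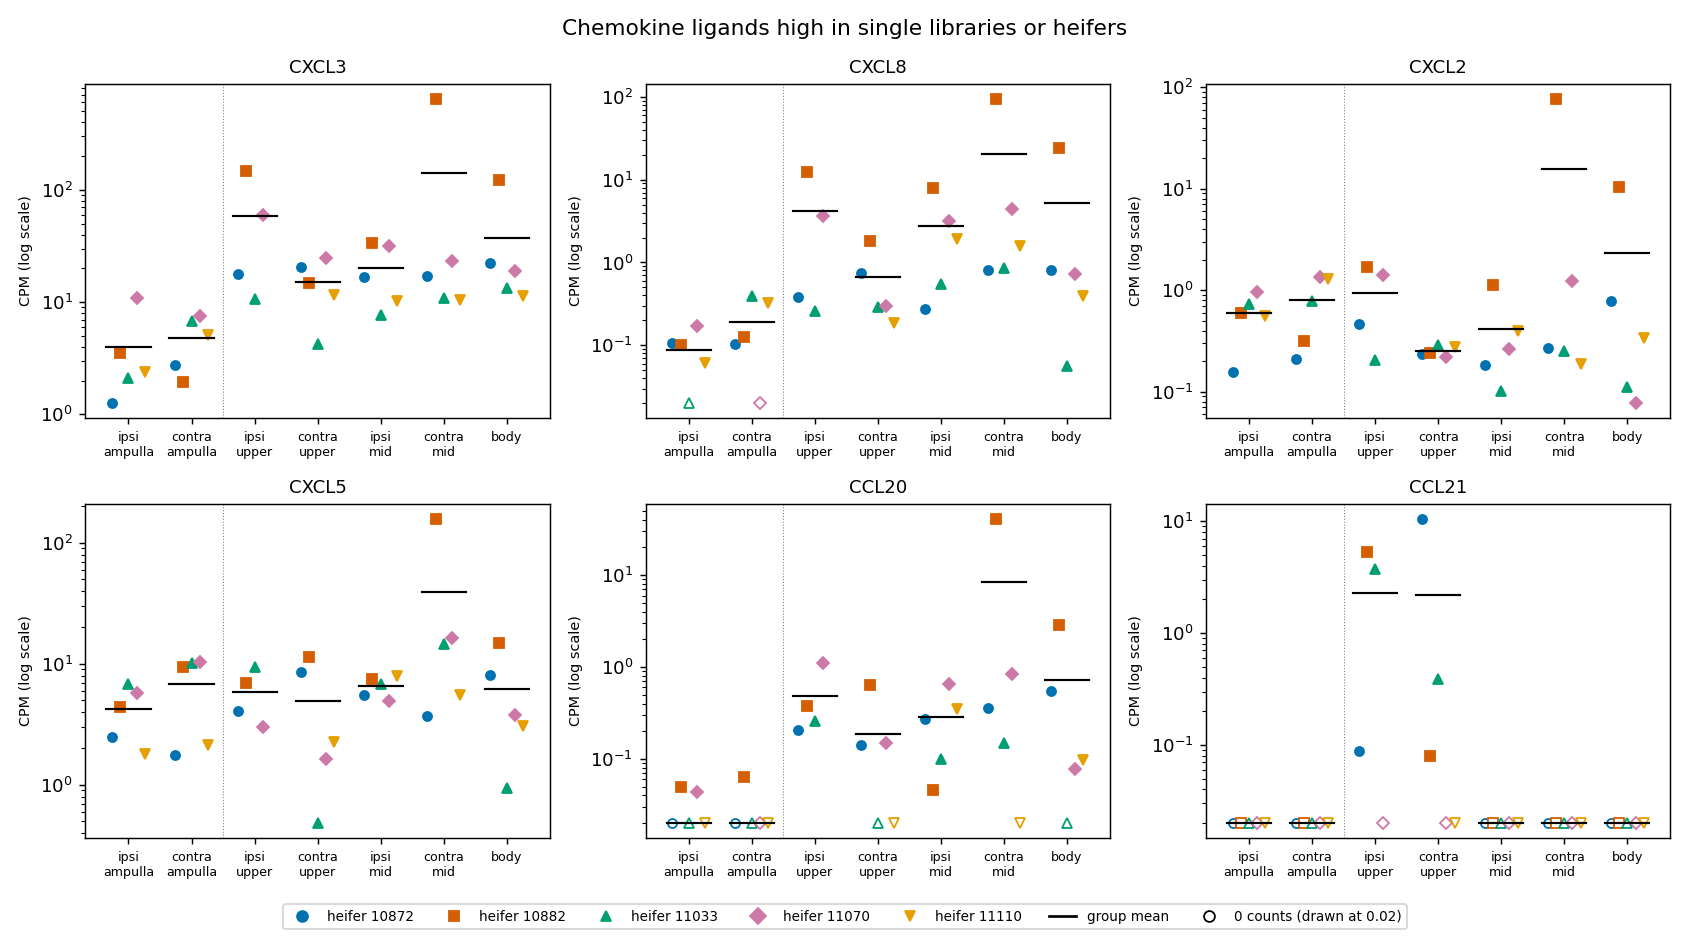
CPM on a log axis of CXCL3, CXCL8, CXCL2, CXCL5, CCL20 and CCL21 in each library, 1 symbol per heifer, over the 7 groups, with ampulla groups at the left, bars at the group means and open symbols at 0.02 for 0 counts. Heifer 10882 stands above the others in the contralateral mid horn for the first 5 genes, with CXCL3 at 646 CPM, and CCL21 has counts in upper horn libraries only.

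Of the 13 CC ligands grouped here as inflammatory, which include CCL14 and CCL16, 11 were lower in the ampulla, beside 35.6% of all features. Another 1 (CCL26) was higher and 1 (CCL5) did not pass the test. The monocyte attractant CCL2 had 1.93 ± 1.18 CPM in the ampulla, against 7.01 ± 4.29 CPM in the endometrium (SD, n = 5), and fell by 1.86 ± 0.38 on the log2 scale (edgeR adjusted p = 8.7e-05). CCL8, another monocyte attractant, had 0.912 ± 0.294 CPM in the ampulla, against 4.91 ± 2.61 CPM in the endometrium (SD, n = 5), and fell by 2.19 ± 0.34 (edgeR adjusted p = 1.4e-06). CCL3 and CCL4 are made by activated macrophages and T cells. CCL3 had 0.317 ± 0.107 CPM in the ampulla, against 1.05 ± 0.19 CPM in the endometrium (SD, n = 5), and fell by 1.90 ± 0.40 (edgeR adjusted p = 0.00013). CCL4 had 0.490 ± 0.398 CPM in the ampulla, against 1.42 ± 0.57 CPM in the endometrium (SD, n = 5), and fell by 1.66 ± 0.40 (edgeR adjusted p = 0.00058). All 4 of these were lower in the ampulla in 5 of 5 heifers.

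CCL17 and CCL22, the ligands of CCR4 that draw regulatory and type 2 helper T cells, also moved alike. CCL22 had 0.239 ± 0.136 CPM in the ampulla, against 2.16 ± 1.79 CPM in the endometrium (SD, n = 5), with a log2 fold change of -2.81 ± 0.55 (edgeR adjusted p = 5.4e-05). CCL17 had 0.157 ± 0.155 CPM in the ampulla, against 0.903 ± 0.548 CPM in the endometrium (SD, n = 5), with a log2 fold change of -2.75 ± 0.59 (edgeR adjusted p = 0.00017). Without heifer 10882 the log2 fold changes were -3.44 for CCL22 and -3.56 for CCL17. In the endometrium both were higher, by heifer mean, in heifers 11070 (4.24 CPM of CCL22) and 11110 (3.87 CPM of CCL22) than in the other 3, whose CCL22 was at most 1.60 CPM. CCL1, a ligand of CCR8, had 0 to 0.194 CPM in the ampulla libraries and 0.0935 to 1.78 CPM in the endometrial ones, and fell by 3.83 ± 0.56 on the log2 scale (edgeR adjusted p = 5.2e-07).

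CCL11, the eosinophil attractant eotaxin, was called as lower in the ampulla on few libraries, with a log2 fold change of -3.69 ± 1.45 (edgeR adjusted p = 0.0283). It had counts in 1 of 10 ampulla libraries, at 0.458 CPM. In the endometrium it reached 8.98 CPM in the contralateral upper horn of heifer 10872, 4.74 CPM in the ipsilateral upper horn of heifer 10882 and 5.86 CPM in the ipsilateral upper horn of heifer 11033, while the other 21 libraries had 0 to 0.579 CPM. The call was lost without heifer 11070 (log2 fold change -2.79, edgeR adjusted p = 1) and without heifer 11110 (log2 fold change -3.85, edgeR adjusted p = 0.0576). The log2 fold change was -3.08 without heifer 10872 and -5.67 without heifer 11033, and the call remained in both cases.

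The same 3 upper horn libraries held nearly all CCL21, the ligand of CCR7 made by lymphatic endothelium. They had 10.5, 5.37 and 3.75 CPM, and the remaining 31 libraries 0 to 0.386 CPM. CCL21 had 0 counts in the ampulla and was not tested. Averaged over the endometrium, the level was at least 39.5-fold higher, set at 3 counts over the ampulla libraries. This bound covers counting error only and rests on the upper horn, since the mid horn and the body also had 0 counts. Of the 24 endometrial libraries 18 had 0 counts, and the contralateral upper horn of heifer 10872 held 225 of the 434 endometrial counts. Without that library the level was at least 19.1-fold higher, a check also added after the data were seen. Those 3 libraries also had the highest summed smooth muscle markers of all, at 1202, 3293 and 3569 CPM, against 231 to 951 CPM in the other 6 upper horn libraries. Summed markers of lymphatic endothelium were at 203, 261 and 255 CPM in these 3 libraries, against 33.6 to 370 CPM in the other 6. Only 3 of the 4 listed markers had a row, without FLT4. Their sum was as high in the ampulla, at 54.9 to 370 CPM, where blood endothelium markers summed to 3.73 to 11.4 CPM. The amount of lymphatic vessel could therefore not be judged from this list. The part of smooth muscle, or of lymphatic vessels, in the CCL11 and CCL21 levels was not tested. CCL19, the other ligand of CCR7, had 8 counts in all, in 2 libraries of heifer 10882. CCL27, a skin-homing ligand of CCR10, did not pass the test, with 3.04 ± 1.03 CPM in the ampulla, against 4.46 ± 1.43 CPM in the endometrium (SD, n = 5) and a log2 fold change of -0.46 ± 0.26 (edgeR adjusted p = 0.118).

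Of the CX3C and XC ligands, none was called. CX3CL1, a membrane-bound ligand of CX3CR1, had 14 counts in 34 libraries and was not tested. XCL1 and XCL2 are made by natural killer cells and cytotoxic T cells and draw cross-presenting dendritic cells. XCL1 had 0.246 ± 0.249 CPM in the ampulla, against 0.321 ± 0.135 CPM in the endometrium (SD, n = 5), with a log2 fold change of -0.44 ± 0.52 (edgeR adjusted p = 0.470). XCL2 had 2.02 ± 1.07 CPM in the ampulla, against 2.45 ± 0.85 CPM in the endometrium (SD, n = 5), with a log2 fold change of -0.27 ± 0.28 (edgeR adjusted p = 0.411). Their ranges overlapped between the regions, and neither passed the test.

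**Figure D4:**
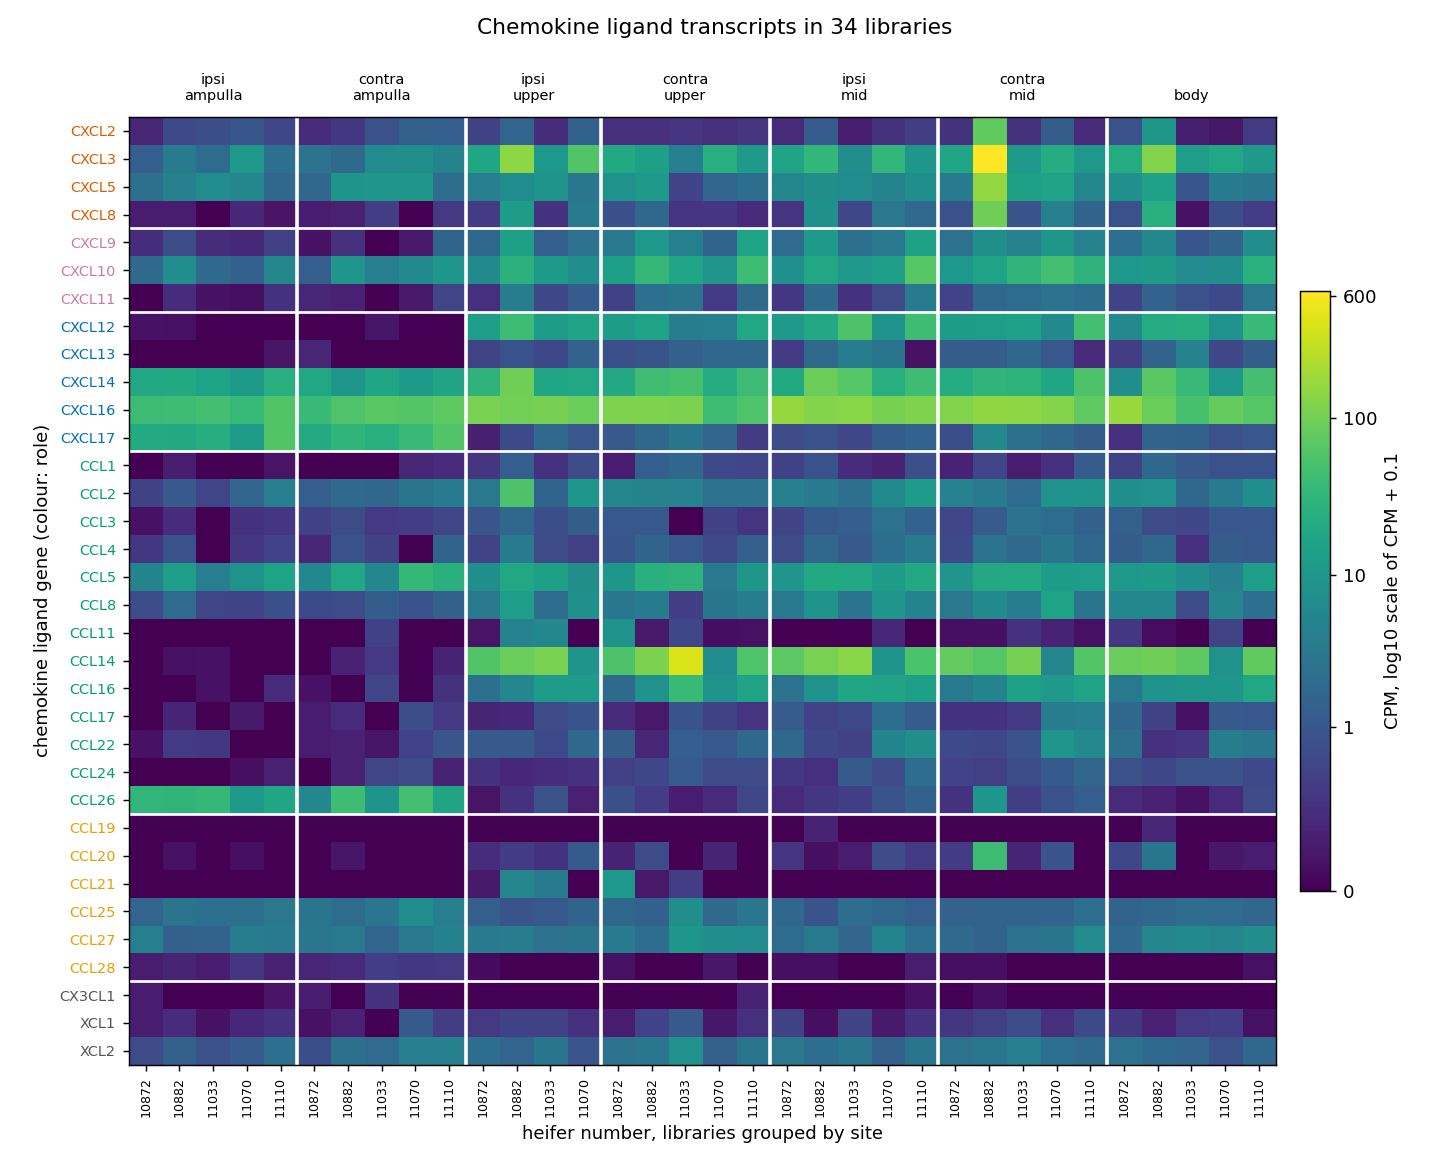
CPM of the 34 chemokine ligands, in rows ordered by role, in the 34 libraries, in columns grouped by site from the ampulla at the left to the uterine body at the right, on a log10 colour scale of CPM + 0.1. Brighter colours mark higher CPM. CCL26 and CXCL17 are brighter in the 10 ampulla columns, CCL14, CCL16 and CXCL12 in the 24 endometrial columns, and CXCL3 reaches 646 CPM in 1 mid horn column.

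The receptors of these ligands were a fixed list of 23 genes, of which 19 had a row and 10 had enough counts to be tested. Of these 10, 8 differed between ampulla and endometrium, 1 higher and 7 lower. Beside them, 64.9% of all features differed, 29.4% higher and 35.6% lower. The one higher was a noncoding transcript row (XR_003031867.1) of CCR8, the receptor of CCL1, with 31.9 ± 8.04 CPM in the ampulla, against 9.56 ± 2.08 CPM in the endometrium (SD, n = 5) and a log2 fold change of 1.75 ± 0.13 (edgeR adjusted p = 4.2e-13). ACKR3, a scavenging receptor of CXCL12, had 0.575 ± 0.293 CPM in the ampulla, against 48.5 ± 18.8 CPM in the endometrium (SD, n = 5), and fell by 6.36 ± 0.28 on the log2 scale (edgeR adjusted p = 7.05e-19). CXCR4, the signalling receptor of CXCL12, fell by 1.03 ± 0.23 (edgeR adjusted p = 0.00031). ACKR1, a chemokine-binding receptor of venous endothelium, fell by 4.85 ± 0.39 (edgeR adjusted p = 1.9e-12). CCR6, CCR1 and CXCR3 were also lower, and CCR7 and CCR10 did not pass the test. CCR3, CCR4, CX3CR1 and XCR1 were not analysed here.

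Within the uterus, no chemokine ligand passed the test between sites at an adjusted p under 0.05. Between upper horn and body 0 of 30 ligands were called, beside 0.0232% of all features, and 1 ligand had an unadjusted edgeR p under 0.05, beside 11.2% of all features. Between mid horn and body 0 were called, beside 4.45% of all features, and 6 had an unadjusted p under 0.05, beside 28.0%. Between upper and mid horn 0 were called, beside 0.0174% of all features, and 9 had an unadjusted p under 0.05, beside 6.08%. DESeq2 called 0, 1 and 0 ligands in these 3 comparisons, the 1 being CCL26, beside 0.0696%, 15.7% and 0.135% of the features it gave an adjusted p. The smallest edgeR adjusted p of any ligand was 0.0808, for CCL26 in the mid horn against the body. There CCL26 had 0.629 ± 0.497 CPM in the ipsilateral mid horn, 2.51 ± 4.10 CPM in the contralateral mid horn and 0.240 ± 0.226 CPM in the body (SD, n = 5), and the largest value was again the 9.80 CPM of heifer 10882.

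CXCL9 had a log2 fold change of 1.03 ± 0.44 in the mid horn over the body (edgeR adjusted p = 0.126), and CXCL10 one of 0.97 ± 0.36 (edgeR adjusted p = 0.0892). CXCL10 averaged 23.5 ± 24.0 CPM in the ipsilateral mid horn, 27.1 ± 14.4 CPM in the contralateral mid horn and 12.7 ± 8.09 CPM in the body (SD, n = 5). The ranges of the 3 groups overlapped. The ipsilateral mid horn held 1 library at 65.7 CPM, and its median was 13.5 CPM, against 10.5 CPM in the body. CXCL16 also had higher means in the mid horn, with 130 ± 19.2 CPM ipsilateral and 125 ± 29.4 CPM contralateral, against 90.8 ± 46.5 CPM in the body (SD, n = 5). Its log2 fold change was 0.51 ± 0.23 (edgeR adjusted p = 0.141). CCL11 had the largest shift between upper and mid horn, 4.68 ± 1.23 on the log2 scale (edgeR adjusted p = 0.603), resting on the 3 libraries named above.

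Between the sides, the question was whether ligands differ near the ovulating ovary, and none passed the test at an adjusted p under 0.05. In the ampulla 0 of 30 ligands were called, beside 0.0174% of all features, and 6 had an unadjusted edgeR p under 0.05, beside 7.25%. In the upper horn 0 were called, beside 0.0058%, and 4 had an unadjusted p under 0.05, beside 6.89%. In the mid horn 0 were called, beside 0.0% of all features, and 3 had an unadjusted p under 0.05, beside 2.98%. Over the 3 sites together 0 were called, beside 0.0%, and 7 had an unadjusted p under 0.05, beside 13.3%. For the difference between the side effects of the ampulla and of the horns, 0 were called, beside 0.0%, and 5 had an unadjusted p under 0.05, beside 5.32%. DESeq2 gave an adjusted p to 0 of the 30 ligands in the ampulla, where it called 1.34% of the features with one. In the other comparisons of sides DESeq2 called 0 of 29 ligands in the upper horn, 0 of 29 in the mid horn, 0 of 26 over the 3 sites and 0 of 30 for the difference between ampulla and horns. It called 0.103%, 0.144%, 0.58% and 0.0406% of the features with an adjusted p in those comparisons. The smallest edgeR adjusted p was 0.248, for CCL24 over the 3 sites, with a log2 fold change of -1.45 ± 0.39.

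Per animal, 3 of the 30 tested ligands were lower in the ipsilateral ampulla in 5 of 5 heifers: CCL3, CCL5 and XCL2. The few counts of CCL28, which was not tested, had that direction in 5 of 5 heifers too. How many of all features shared a direction in this way was not counted, so the number of ligands has no background beside it. CCL5 had 5.10, 13, 4.19, 8.57 and 15.9 CPM in the ipsilateral ampulla, against 5.90, 18.7, 5.89, 34.6 and 26.4 CPM in the contralateral ampulla of the same heifers. The differences ran from -26.0 to -0.807 CPM, so the heifers shared the direction and not the size. The log2 fold change was -1.03 ± 0.45 (edgeR adjusted p = 0.637). XCL2 had 1.24 ± 0.67 CPM in the ipsilateral ampulla and 2.80 ± 1.58 CPM in the contralateral ampulla (SD, n = 5), a log2 fold change of -1.22 ± 0.46 (edgeR adjusted p = 0.616). CCL3 had 0.164 ± 0.133 CPM in the ipsilateral ampulla and 0.469 ± 0.116 CPM in the contralateral ampulla (SD, n = 5), with -1.57 ± 0.67 (edgeR adjusted p = 0.637). It rested on few reads, 16 counts in the ipsilateral and 37 in the contralateral ampulla libraries together. In heifer 11070 it had 6 and 5 counts, so its direction there came from the scaling to library totals. CCL4 and XCL1, named above with the same source cells as CCL3 and XCL2, were lower there in only 3 of 5 and 2 of 5 heifers. The leukocyte marker sum was lower in the ipsilateral ampulla in 5 of 5 heifers, at 30.1 to 59.9 CPM against 33.7 to 64.0 CPM. Of its 12 tested markers, 0 were called between these sides (median log2 fold change -0.24). The part of leukocytes in these differences was not tested.

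CCL26 showed how far the ampullae of 1 animal could differ in opposite directions. The ipsilateral minus contralateral difference was 26.6, -11.1, 24.7, -36.8 and 0.243 CPM in heifers 10872, 10882, 11033, 11070 and 11110. The sides were thus nearly equal in 1 heifer and several-fold apart in 3, with no common direction. CXCL17 in the same animals differed by 0.227, -11.2, -0.451, -24.9 and 1.93 CPM, and heifer 11070 was lower on the ipsilateral side for both genes.

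In the upper horn, where 4 heifers had both sides, CCL8 and CXCL12 were higher on the ipsilateral side in 4 of 4. CXCL12 had 13.8, 40.5, 12.5 and 16.6 CPM in the ipsilateral upper horn of heifers 10872, 10882, 11033 and 11070, against 12.6, 16.0, 3.96 and 4.27 CPM in the contralateral upper horn. Its log2 fold change was 1.21 ± 0.43 (edgeR adjusted p = 0.696). CCL8 averaged 6.68 ± 5.06 CPM in the ipsilateral upper horn and 2.50 ± 1.43 CPM in the contralateral upper horn of these heifers (SD, n = 4), with 1.06 ± 0.52 (edgeR adjusted p = 0.724). Another 6 ligands, CCL24, CCL25, CXCL10, CXCL13, CXCL17 and XCL2, were lower on the ipsilateral side in 4 of 4. The share of all features with 1 direction in 4 of 4 heifers was not counted either. CCL24 had 0.221 ± 0.043 CPM in the ipsilateral upper horn and 0.700 ± 0.322 CPM in the contralateral upper horn (SD, n = 4). In the mid horn no named ligand had the same direction in 5 of 5 heifers, and the largest difference was that of CXCL3 in heifer 10882, at -612 CPM.

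**Figure D5:**
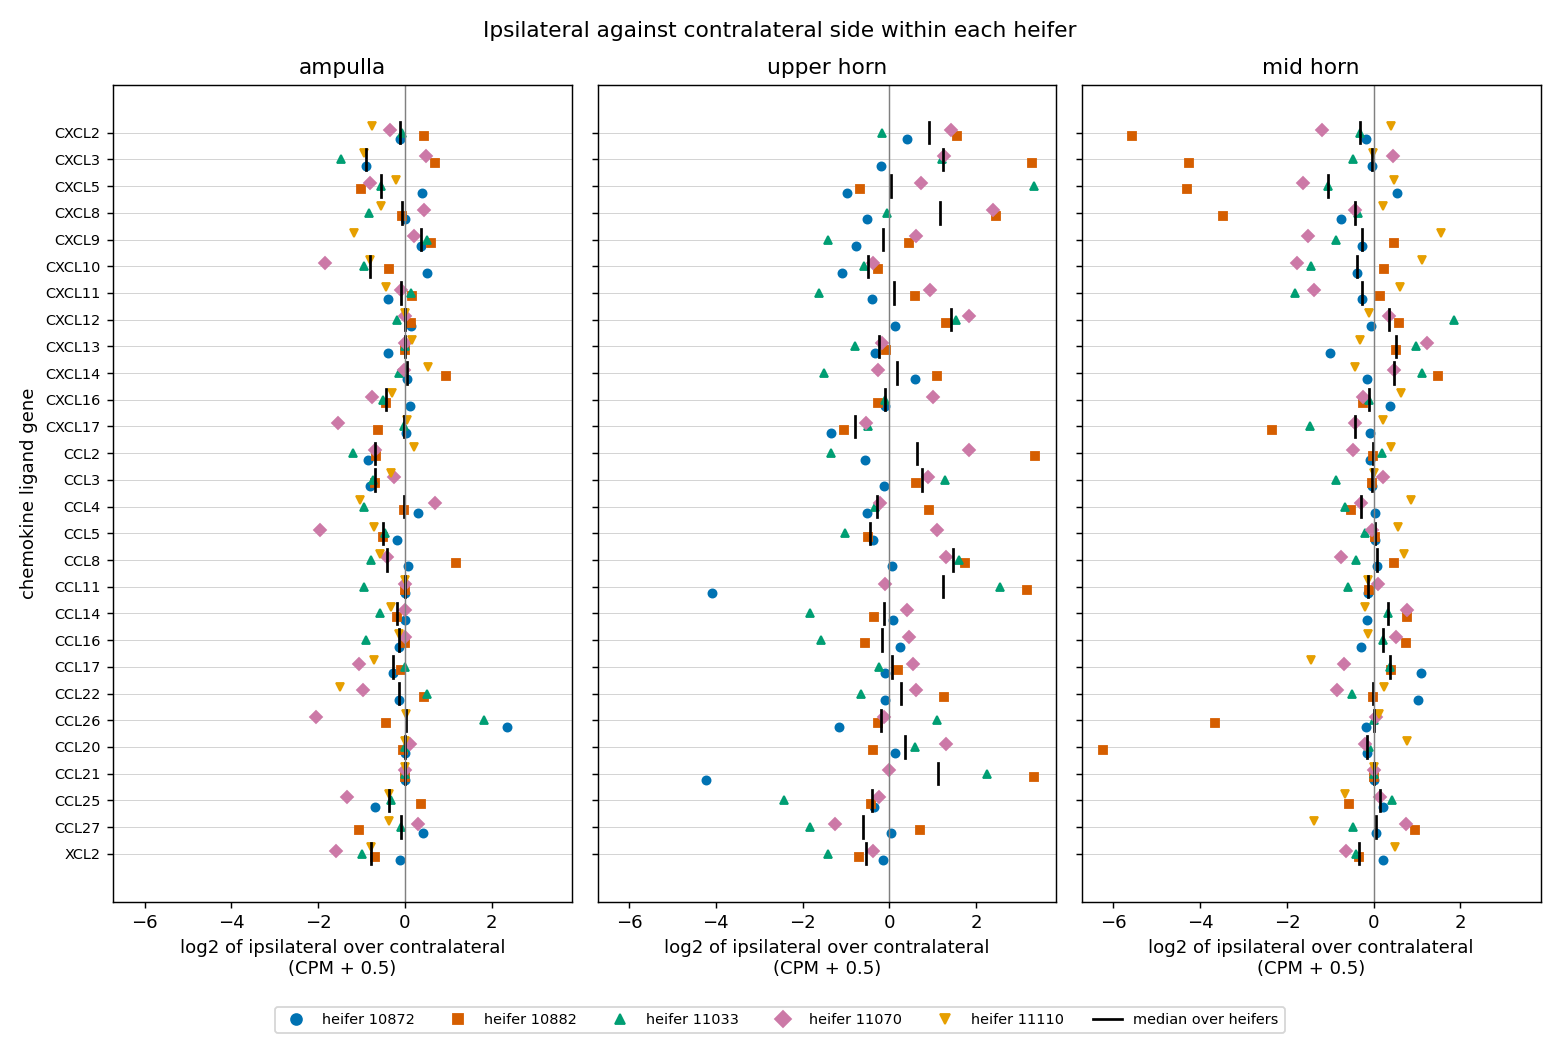
Log2 ratio of ipsilateral over contralateral CPM + 0.5 within each heifer for the chemokine ligands with a group mean of at least 1 CPM, in the ampulla, upper horn and mid horn, 1 symbol per heifer, with black bars at the median. In the ampulla, CCL5 and XCL2 lie left of 0 in 5 of 5 heifers, and in the mid horn the points of heifer 10882 lie far to the left for CXCL2, CXCL3, CXCL5 and CCL20.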

How the data were processed

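The authors deposited a table of whole-number read counts, 1 column per library, for 38568 transcript features, not normalised. Per the labels' protocols, total RNA went into a stranded library kit. Per the submitters' processing notes, the tools were STAR 2.7.9a, cutadapt, SAMtools and HTSeq. Genome build, strand setting and counting mode: not given in the sources used here. No coordinates are therefore printed. Symbols came from a RefSeq table (ARS-UCD2.0). It matched 26362 features to 21554 genes, carrying 95.3% of counts. Of the 34 ligands, 8 matched ignoring the accession version. A read shared by several transcripts of a gene may be lost.

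Counts were tested with edgeR 4.0.16 in R 4.3.3 (TMM, filterByExpr, robust quasi-likelihood, group and heifer as terms, 34 libraries, 17241 features, 9 contrasts). P-values were adjusted by Benjamini-Hochberg within a contrast. The endometrium weighted upper horn, mid horn and body equally, and so did heifer means. CPM used TMM-scaled totals. The SE is the log2 fold change over the root of F. Intervals are exact (95%) and, like floors of 3 counts, cover counting error only. The labels put all sites in the same heifers. Deviations from group means correlated with a median of 0.250 within heifers (99 library pairs) and -0.0582 between heifers (396 pairs). No 2 libraries of a group agreed within sampling noise (chi-square per feature at least 44.8 over 66 pairs). The fit was tested on simulated data.

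The ligands, roles, receptors and markers were chosen with earlier results of these data known. A ligand was named if a group mean reached 1 CPM or a contrast called it, which held for 30. CCL19, CCL28, CX3CL1 and XCL1 are given for completeness. Alternatives were DESeq2 1.42.0, its size factors, no filter, no replicate block, summed rows, compared groups only, and heifers or libraries left out. The values of 1 receptor on the list are not reported here.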

Additional observations from a re-analysis of the deposited data

Results flagged for a closer look

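Within the groups of 4 or 5 heifers, 138 sets of chemokine ligand CPM values were screened for a highest or lowest library far from the rest (Dixon's 95% critical value), and 29 were set apart. Chance sets apart about 5 in 100 when sets are independent and normally distributed. Sets of different ligands share libraries here, and most of the 29 were high values, so that share is only a rough guide. Of the 29, 14 belonged to heifer 10882, 6 to heifer 11110, 4 to heifer 11033, 3 to heifer 11070 and 2 to heifer 10872.

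In heifer 10882, the contralateral mid horn held 646 CPM of CXCL3, 158 CPM of CXCL5, 94.8 CPM of CXCL8, 76.8 CPM of CXCL2, 40.9 CPM of CCL20 and 9.80 CPM of CCL26. Its uterine body had 122 CPM of CXCL3, 24.3 CPM of CXCL8 and 10.3 CPM of CXCL2. Its ipsilateral upper horn had 95.6 CPM of CXCL14, 55.4 CPM of CCL2, 40.5 CPM of CXCL12, 14.5 CPM of CXCL9 and 3.44 CPM of CCL4. Each was the highest library of its group.

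In heifer 11110, CXCL10 was high in the ipsilateral mid horn (65.7 CPM) and the body (26.6 CPM), CXCL17 in the ipsilateral ampulla (60.6 CPM), and CXCL12 (45.2 CPM), CCL27 (6.86 CPM) and CCL25 (2.33 CPM) in the contralateral mid horn. In heifer 11033, the contralateral upper horn, the smallest library, was high in CCL14 (389 CPM), XCL2 (8.50 CPM) and CCL25 (7.72 CPM), and the body in CXCL13 (4.78 CPM). Heifer 11070 was low in CCL14 in the body (9.0 CPM), and high in CCL8 in the contralateral mid horn (16.2 CPM) and in CXCL3 in the ipsilateral ampulla (10.8 CPM). In heifer 10872, the contralateral upper horn was high in CCL21 (10.5 CPM) and CCL11 (8.98 CPM).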

How the results depend on the processing

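Between ampulla and endometrium, 23 to 25 ligands were called in every setting. Without the replicate block 24 were called, the same genes, and the block changed no call there. Over all features, the median log2 fold change was -0.27 with DESeq2 size factors and the share of calls higher in the ampulla 40.8% to 45.8%. CCL27 passed with DESeq2 (-0.56, adjusted p = 0.0424) and without heifer 10872 (-0.81, edgeR adjusted p = 0.0182). CCL11 did not pass without 3 contralateral libraries together, the mid horn of 10882, the upper horn of 11033 and the ampulla of 11070 (-3.75, edgeR adjusted p = 0.0543). Without the block CXCL8 moved to -4.87 and CXCL3 to -3.15. Other moves were those of CCL20, to -4.30 without the contralateral mid horn of heifer 10882, and CXCL13, to -7.09 without heifer 10872. Signs turned only in ligands that did not pass the test. CXCL2 was at -1.06 without the block and -0.39 to 0.97 with a heifer left out. XCL1 was at -1.12 to 0.0093 with a heifer left out. CCL5 was at -0.074 with DESeq2 or its size factors, -0.049 with no filter, -0.27 without those 3 libraries, -0.040 without the ipsilateral upper horn of heifer 10882, a check added after the data were seen, and -0.44 to 0.31 with a heifer left out. The cause was not tested.

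In the other comparisons 0 ligands were called. With no filter, 2 of 34 were called between upper horn and body, 3 between mid horn and body and 6 between upper and mid horn. Over all features 150, 2057 and 207 were called there. Between the sides 1 was called in the upper horn, 3 in the mid horn and 1 over the 3 sites, beside 173, 140 and 507 of all features. The number of features tested with no filter is not given here, so these calls have no share beside them. Between mid horn and body, 1 passed with DESeq2, 2 with the compared groups only, 1 without those 3 libraries and 0 to 2 with a heifer left out. The count over all features there, 767, became 2714 with DESeq2, 3028 with the compared groups only and 1228 without those 3 libraries. Over all settings it was 0 to 3028. In the other comparisons of sites and sides it was 0 to 4, and became 7 to 69 with DESeq2 and 116 to 507 with no filter. Fold changes were recomputed for all 30 tested ligands between ampulla and endometrium. In the other comparisons this was done only for ligands with an unadjusted edgeR p under 0.05, so ligands near 0 are left out there. Of these recomputed fold changes, 1018 kept their direction and side of the threshold, 19 newly passed, 3 no longer passed and 12 turned in sign. DESeq2 gave no adjusted p to any ligand between the sides of the ampulla, so its call there has no value. Low counts limit CCL19, CCL21, CCL28 and CX3CL1.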

Other observations

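GRO1, which the RefSeq table gives as a synonym of CXCL1 and which lies next to CXCL3, is outside the naming rule. It averaged 1.35 ± 0.51 CPM in the ampulla, against 13 ± 23.1 CPM in the endometrium (SD, n = 5), with a log2 fold change of -1.43 ± 0.56 (edgeR adjusted p = 0.0273). Its highest libraries were the contralateral mid horn (195 CPM), the body (41.9 CPM) and the ipsilateral upper horn (30.4 CPM) of heifer 10882, the 3 in which CXCL3 was highest. Reads shared with CXCL2 and CXCL3 make its level uncertain.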
